A study of Rattus norvegicus with 24 samples.

Results

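Metallothioneins and antioxidant enzymes were followed in rat cerebral cortex as 10 genes, each measured by 1 probe of an Illumina RatRef-12 beadchip. The metallothionein genes were Mt1 and Mt3, and the enzyme genes were Txnrd1, Prdx1, Gclc, Gclm, Sod1, Sod2, Hmox1 and Nqo1. They were taken by gene symbol out of 13337 genes named on the array, with earlier results of these data known. RNA came from male Wistar rats of 250 to 300 g, collected at 8 h or 24 h after surgery, with 4 arrays in each of 6 groups. Sham animals had the operation without arterial occlusion, and the sources used here give them no injection. Vehicle animals, as a model of ischemic stroke, had a middle cerebral artery permanently occluded and were given 80% dimethyl sulfoxide (DMSO) by intraventricular injection. The treatment group was injured likewise and was given 30 mM ZM447439, an inhibitor of Aurora kinases, in 80% DMSO. No age is given, and the labels do not say whether each array is a separate animal. The tissue is labelled as right cortex while the occlusion is described on the left side, and the sources used here do not settle which is meant.

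Metallothioneins are small cysteine-rich proteins that bind zinc and copper and also scavenge oxidants. Mt1 is induced by metals, glucocorticoids, cytokines and oxidative stress through the metal-sensing transcription factor MTF1 and other factors, mainly in astrocytes of the brain. Mt3 is the brain-enriched form and is less inducible. The enzyme genes encode the thioredoxin and glutathione systems, the superoxide dismutases and the enzymes of heme and quinone detoxification, and many of them are targets of the transcription factor NRF2 (gene Nfe2l2), which is held in check by KEAP1.

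The table of values that could be matched to samples by name held 22523 probes. The 12 columns of each time point were 1 probe profile multiplied by 1 factor per array, with no probe departing from the common profile by more than 2.97e-07 on the log2 scale at 8 h or 2.87e-07 at 24 h. None of the 10 genes could therefore be compared between sham, vehicle and treatment animals, and the sources used here do not say from which arrays either profile was made. Array medians ranged from 65.3 to 90.1 intensity units at 8 h and from 76.8 to 115.0 at 24 h. Whether the unscaled ranges of a probe overlap between times follows from these factors and its scaled difference. Overlap or its absence is therefore no replicate check. With higher medians at 24 h, a rise separates the ranges at a smaller fold than a fall does. Each column was divided by its median, so a level is given as a multiple of the array median and a difference is the log2 of the 24 h level over the 8 h level. With 1 profile per time point these differences have no replicate check and no p-value, and 1.5-fold was used only as a size. In bulk tissue, fewer cells of a type and less RNA per cell cannot be told apart. Levels of different probes are not comparable as amounts of RNA.

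Mt1 stood far lower in the 24 h profile than in the 8 h profile, at 32.4 against 85.2 times the array median, whereas Mt3 stood at 220 against 235. Txnrd1, the cytosolic thioredoxin reductase gene, was also lower at 24 h, and Prdx1, a peroxiredoxin gene, was higher. The other 6 enzyme genes differed by less, from -0.34 for Gclc to 0.16 for Hmox1. Of the 10 members, 4 were higher at 24 h, against 45.3% of all 13793 probes with a symbol, and 6 were lower, against 54.7%. At least 1.5-fold lower were 2 members, Mt1 and Txnrd1, against 0.660% of all probes with a symbol. No member was at least 1.5-fold higher, against 0.877%. The median difference over the 10 members was -0.053, beside -0.013 over all probes with a symbol.

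**Figure D1:**
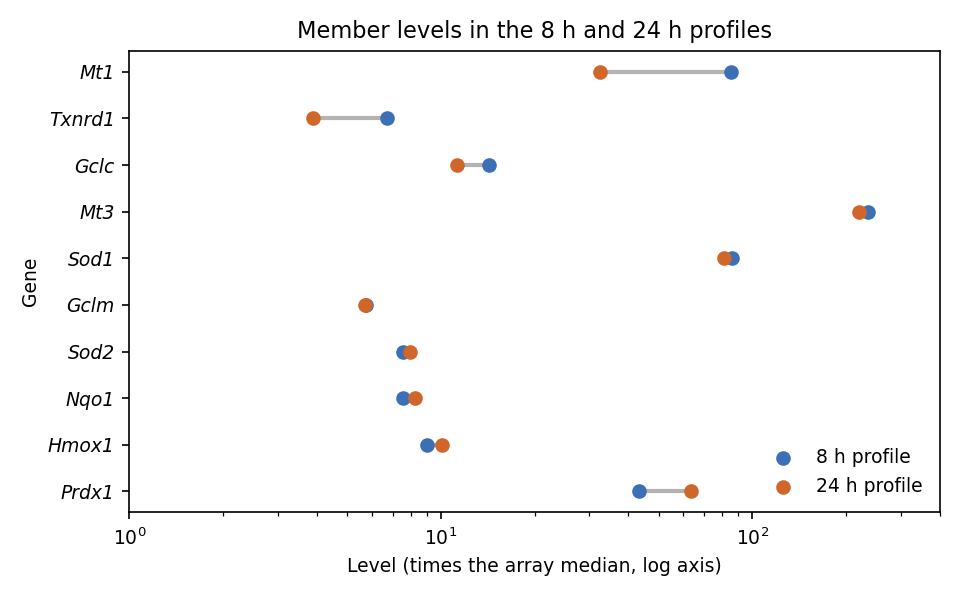
Level of each of the 10 genes in the 8 h profile (blue) and the 24 h profile (orange), as a multiple of the array median on a log axis, ordered by the 24 h minus 8 h difference. Mt1 shows the widest gap, from 85.2 to 32.4 times the median, and the points of Gclm lie on each other.

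All 10 probes were bright, from 5.30 times the array median for Txnrd1 to 228 times for Mt3 as the mean of both profiles, above the 75th percentile of all probes at 2.88. The bright probes were centred below 0 with this scaling. Among the 3092 probes with a symbol at or above the level of Txnrd1, the median difference was -0.080, 34.7% were higher at 24 h, 1.71% were at least 1.5-fold higher and 1.42% at least 1.5-fold lower. Their median was -0.025 with scaling to the 75th percentile, -0.015 after quantile normalization and 0.001 after cyclic loess, so it depends on the scaling. Mt1 had the lowest difference of these 3092 probes, and also of all 13793 probes with a symbol. Its difference was larger in size than that of 99.7% of the bright probes, with 98.1% for Txnrd1, 96.3% for Prdx1 and 85.5% for Gclc. For the other 6 members this share lay between 4.4% for Gclm and 51.5% for Hmox1.

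**Figure D2:**
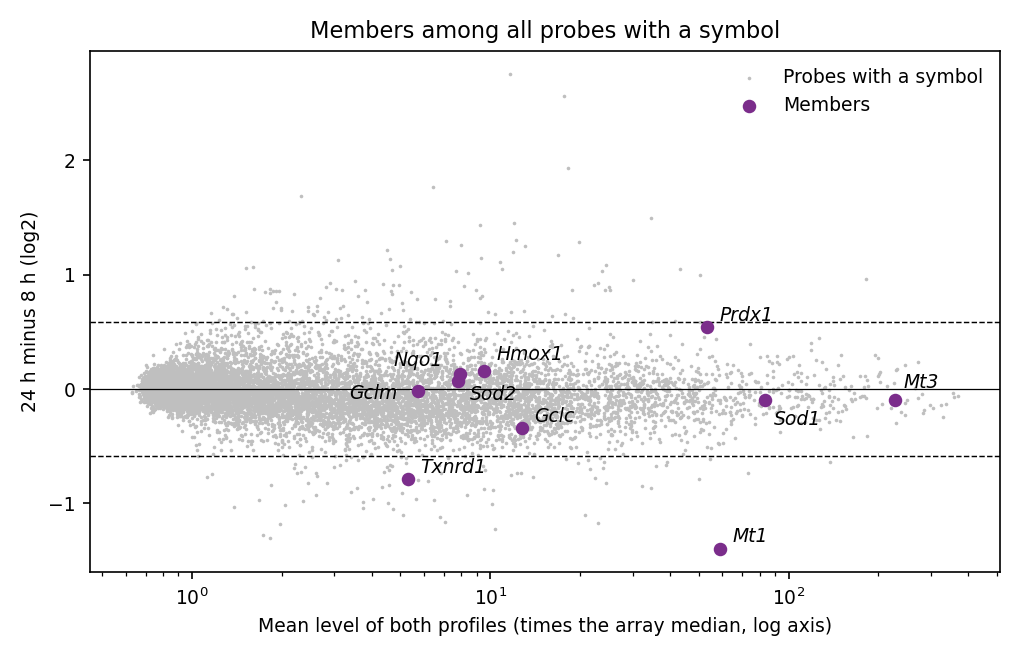
The 24 h minus 8 h difference (log2) of every probe with a symbol (grey) against its mean level in both profiles (times the array median, log axis), with the 10 members in purple and dashed lines at 1.5-fold. Mt1 at -1.40 is the lowest point, Txnrd1 lies beyond the lower line and Prdx1 just inside the upper line.

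A scale for the error of a single probe was taken from genes with several bright probes. In 25 genes with at least a pair of probes at or above the level of Txnrd1, the differences of the brightest pair were apart by a median of 0.13, with 95% of the gaps at or under 0.33 and the largest at 0.57. Mt1 and Txnrd1 differed between the profiles by more than the largest of these gaps. Prdx1 lay above the 95% mark but under the largest gap. Gclc passed the 95% mark narrowly, and under 5 of the 6 scaling and background alternatives that could change a value it did not. The differences of the other 6 members were smaller than the 95% mark and could not be told from disagreement between probes. A wider scale took 425 genes with several probes at any level, dim probes included. There 95% of the gaps were at or under 0.42 and the largest was 0.82. Mt1 exceeded that largest gap, Txnrd1 and Prdx1 passed only the 95% mark, and Gclc did not pass it. Both scales cover probe disagreement within the same pair of profiles and not the spread between animals.

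Unscaled Mt1 intensity at 8 h was 7123, 6638, 7182 and 6348 in the sham arrays. It was 7676, 7378, 6740 and 6544 in vehicle arrays and 6834, 7659, 5804 and 5566 in treatment arrays. At 24 h the sham arrays stood at 2488, 2940, 2653 and 2517, the vehicle arrays at 3654, 3722, 2830 and 2682, and the treatment arrays at 2866, 3266, 2869 and 2808. In unscaled intensity every 24 h array lay below every 8 h array, which was so for 0.276% of all probes with a symbol. This separation follows from the array factors and the scaled difference, and is no replicate check. Spread among arrays of the same time is the array's factor alone, shared by all probes, so the order of sham, vehicle and treatment arrays carries no information about Mt1. After scaling, Mt1 was 2.63-fold lower at 24 h (difference -1.40). Under the 6 scaling and background alternatives that could change a value, its difference stayed between -1.40 and -1.34.

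Mt3 intensity had a lowest, median and highest value of 15374, 18747 and 21204 over the 12 arrays at 8 h and of 16894, 19340 and 25275 at 24 h. These ranges overlapped, and the scaled levels gave a difference of -0.10 (-0.10 to -0.04 over the alternatives). Subtracting the Mt3 difference from that of Mt1 left -1.30 on the log2 scale. Whether the Mt1 probe also detects transcripts of the close paralog Mt2A was not tested, and the annotation gave no probe the symbol Mt2A. Of the 10 other genes in the list of metallothionein and zinc-handling genes, 6 were higher and 4 lower, with a median of 0.037 and none past 1.5-fold, and the median of the whole list ran from -0.025 to 0.037 over the settings. For comparison with this and the later list counts, 45.3% of all probes with a symbol and 34.7% of bright probes were higher at 24 h. The gene of the metal sensor MTF1 stood at 3.12 and 2.63 times the array median (difference -0.25). Slc30a5, a zinc transporter of the secretory pathway, stood at 11.2 and 8.18 (-0.46). Slc30a1, the exporter that is itself a metal-induced MTF1 target, was dim at 0.993 and 0.963 times the array median, at the level of the middle of the array, so its difference of -0.04 has little meaning.

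The DNA upstream of the metallothionein genes is shown because Mt1 and Mt3 lie near each other on chromosome 19 and yet had such unequal differences between the profiles. Sequences are the 250 bases before the annotated start in the RefSeq promoter table (build GRCr8), which held windows for 9 of the 10 members. Capitals mark the core of the metal response element, searched as TGCACNC and TGCGCNC on both strands, and the core of the antioxidant response element, searched as TGACNNNGC on both strands. The matches of the 2 motif sets did not overlap each other in the windows printed.
Mt1 (chr19:10832976-10833225, minus strand): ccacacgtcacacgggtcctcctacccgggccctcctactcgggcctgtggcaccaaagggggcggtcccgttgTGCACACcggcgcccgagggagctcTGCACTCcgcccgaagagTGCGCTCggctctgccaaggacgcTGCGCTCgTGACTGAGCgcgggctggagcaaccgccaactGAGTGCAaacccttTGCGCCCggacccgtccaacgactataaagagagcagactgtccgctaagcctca
Mt3 (chr19:10856081-10856330, minus strand): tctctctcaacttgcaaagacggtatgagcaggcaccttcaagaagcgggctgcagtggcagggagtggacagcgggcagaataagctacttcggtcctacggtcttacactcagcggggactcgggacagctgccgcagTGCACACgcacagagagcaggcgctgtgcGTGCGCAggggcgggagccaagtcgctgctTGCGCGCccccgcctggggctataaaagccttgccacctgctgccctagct

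The Mt1 window held 6 metal response element cores, between 176 and 49 bases before the start. A count of 6 or more occurs in 0.0269% of the 33469 promoter windows in the table. Its antioxidant response element core lay 101 to 93 bases before the start. Mt3 held 3 metal response element cores between 110 and 45 bases before its start and no antioxidant response element core. At least 3 metal response element cores occur in 1.17% of windows. The window of Mt2A, also on chromosome 19, held 4 metal response element cores and 1 antioxidant response element core. At least 4 metal response element cores occur in 0.266% of windows. A match of letters is a description and not a binding site. Any link between the number of cores and the differences was not tested.

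The thioredoxin system contained both Txnrd1 and Prdx1, which differed in opposite directions. Txnrd1 encodes the cytosolic selenoenzyme that reduces thioredoxin with NADPH. Its unscaled intensity was 438.2, 534.3 and 604.3 (lowest, median and highest of 12 arrays) at 8 h and 298.9, 342.2 and 447.2 at 24 h. The ranges met at their edges, with the highest 24 h array above the lowest 8 h array. Scaled levels were 6.71 and 3.89 times the array median, so Txnrd1 was 1.72-fold lower at 24 h (-0.79, from -0.89 to -0.69 over the alternatives). Prdx1, whose product reduces peroxides and is recycled by thioredoxin, had an intensity of 2838, 3461 and 3914 at 8 h and of 4870, 5575 and 7286 at 24 h. All 24 h arrays lay above all 8 h arrays, as did 5.96% of probes with a symbol. The higher array factors at 24 h make such separation easier for a rise than for a fall like that of Txnrd1. The Prdx1 level was 43.4 and 63.4 times the array median, a 1.46-fold higher level at 24 h (0.55). It passed 1.5-fold under 4 of the 6 alternatives, with values of 0.55 to 0.61 over all of them.

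**Figure D3:**
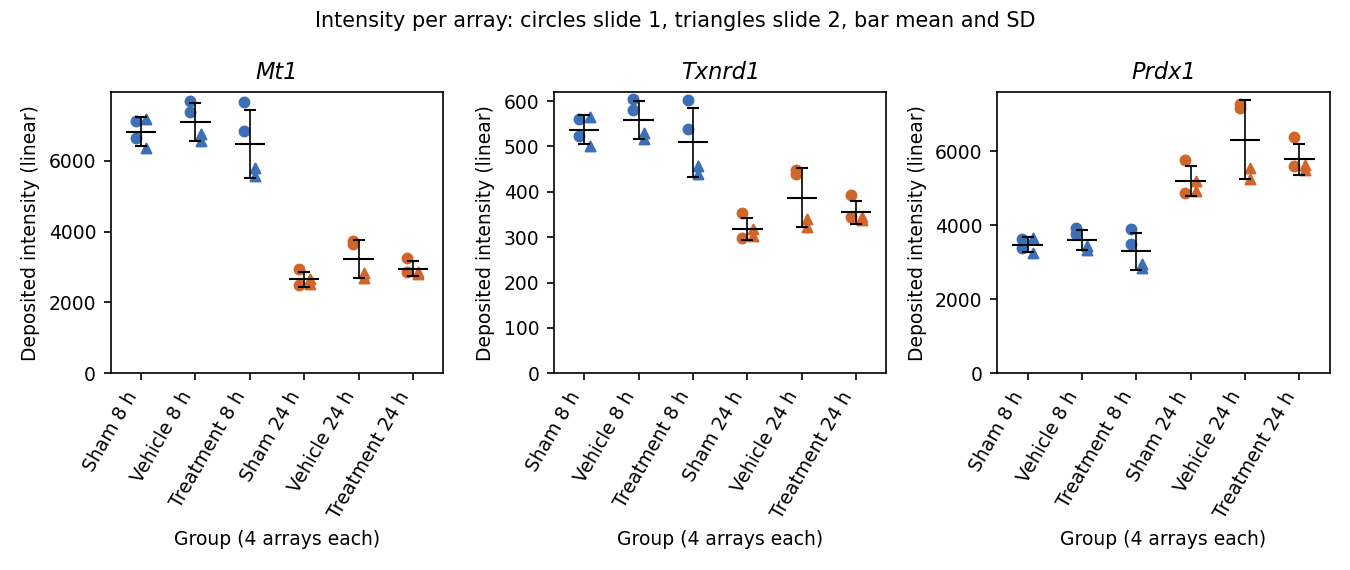
Deposited intensity (linear scale) of Mt1, Txnrd1 and Prdx1 in each array, by group, with circles for slide 1, triangles for slide 2, and the mean and SD of 4 arrays as bars. The 24 h arrays are lower for Mt1 and higher for Prdx1 without overlap, and the pattern among groups of a time point is the same for every gene because it is the factor of the array.

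Among the 15 other genes of the thioredoxin and peroxiredoxin list, 7 were higher and 8 lower, beside 45.3% higher over all probes with a symbol. None was past 1.5-fold, and the median of the whole list ran from -0.015 to 0.040 over the settings. Txn1, the cytosolic thioredoxin that Txnrd1 reduces, stood at 110 and 109 times the array median on its brightest probe (-0.02), and its other probes gave -0.03 and 0.04. Txnrd2, the mitochondrial reductase, was at 3.79 and 3.30 (-0.20). The peroxiredoxin genes besides Prdx1 ran from -0.21 for Prdx6 (55.0 and 47.5) through 0.00 for Prdx2 and 0.02 for Prdx5 to 0.18 for Prdx3. Srxn1, which encodes the sulfiredoxin that repairs overoxidized peroxiredoxins, was dim at 0.811 and 0.820. The p53-inducible Sesn1 was at 19.7 and 14.2 (-0.47), and Txnip, which encodes an inhibitor of thioredoxin, at 16.4 and 19.0 (0.22).

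Glutamate-cysteine ligase, the rate-limiting enzyme of glutathione synthesis, is represented by both of its subunit genes. Gclc, the catalytic subunit gene, had an intensity of 932.7, 1137 and 1286 at 8 h and 864.4, 989.6 and 1293 at 24 h, with overlapping ranges. Its level was 14.3 and 11.2 times the array median, a difference of -0.34 (-0.34 to -0.26 over the alternatives). Gclm, the modifier subunit gene, had an intensity of 375.2, 457.5 and 517.4 at 8 h and 437.1, 500.4 and 653.9 at 24 h. Its level was 5.74 and 5.69 times the median. The Gclm difference of -0.01 turned positive under all 6 alternatives, up to 0.08, so it has no direction. The Gclc difference minus the Gclm difference was -0.330. In size it lay just under the 95% mark of the gaps between probes of 1 gene (0.333), whose median was 0.129.

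Other genes of glutathione synthesis and use were 10 higher and 14 lower of 24, with a median of -0.025 and none past 1.5-fold. With the members included, 10 to 15 of the 26 were higher and the median ran from -0.041 to 0.029 depending on the setting, so the list has no settled direction. Gpx4, the phospholipid peroxidase that limits ferroptosis, stood at 108 and 107 times the array median. Gpx1, the cytosolic glutathione peroxidase, stood at 12.5 and 17.8 (0.51), and the microsomal transferase Mgst1 at 4.31 and 6.13 (0.51), the highest differences of the list, each past 1.5-fold under 2 of the 6 alternatives. The transferase Gstp1 was lower on its bright probes, at -0.47 and -0.50, while its remaining probe near the bottom of the intensity range gave 0.06. Slc7a11, the cystine importer that is a classical NRF2 target, was dim at 0.845 and 0.880.

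Superoxide dismutase genes differed little. Sod1, the cytosolic copper-zinc enzyme, had an intensity of 5638, 6875 and 7775 at 8 h and 6220, 7121 and 9306 at 24 h. Its level was 86.3 and 80.9 times the median (-0.09, -0.09 to -0.04 over the alternatives). Sod2, the mitochondrial manganese enzyme that is induced by NF-kB, had an intensity of 495.6, 604.3 and 683.5 at 8 h and 610.9, 699.4 and 914.0 at 24 h, and a level of 7.59 and 7.95 times the median (0.07, 0.07 to 0.16 over the alternatives). The ranges of both genes overlapped between times. The 3 other genes of this list were Sod3, the extracellular enzyme (5.95 and 7.23, difference 0.28), Cat, which encodes catalase (2.80 and 3.65, 0.38), and the copper chaperone gene Ccs (4.39 and 4.06, -0.11).

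Hmox1, which encodes the inducible heme oxygenase, and Nqo1, which encodes an NAD(P)H quinone reductase, were both slightly higher in the 24 h profile. Hmox1 intensity was 588.3, 717.4 and 811.4 at 8 h and 773.6, 885.6 and 1157 at 24 h, with overlapping ranges and a level of 9.01 and 10.1 times the median (0.16, 0.16 to 0.25 over the alternatives). Nqo1 intensity was 492.8, 601.0 and 679.7 at 8 h and 634.2, 726.0 and 948.8 at 24 h, with a level of 7.54 and 8.25 times the median (0.13, 0.13 to 0.23). Both differences were within the gap between probes of 1 gene. Hmox2, the constitutive heme oxygenase, was at 11.2 and 9.70 (-0.20). Downstream of heme oxygenase, the biliverdin reductase genes Blvra (0.22) and Blvrb (0.17) were higher. The ferritin chain genes were unlike each other, with the heavy chain Fth1 at 367 and 350 times the median (-0.07) and the light chain Ftl1 at 37.9 and 49.9 (0.40). Of the 15 genes besides Hmox1 in the heme and iron list, 9 were higher and 6 lower, beside 45.3% higher over all probes with a symbol. Ceruloplasmin (Cp, 1.79 and 2.47) was the highest at 0.46. Quinone reductase and NADPH supply genes besides Nqo1 were higher in 10 of 13, with a median of 0.13, beside 45.3% higher and a median of -0.013 over all probes with a symbol. The mitochondrial transhydrogenase Nnt (10.1 and 13.4, 0.41) was the highest, and the pentose phosphate enzyme gene Taldo1, the brightest, stood at 60.7 and 67.2 (0.15).

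**Figure D4:**
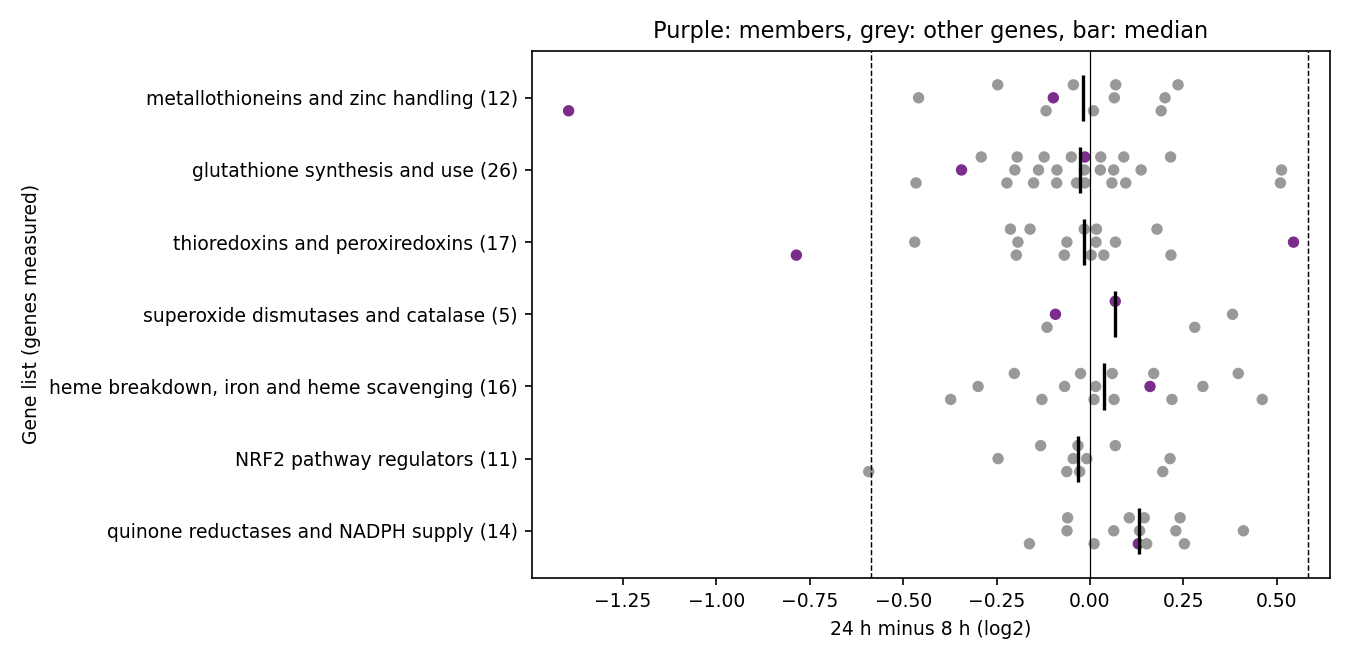
The 24 h minus 8 h difference (log2) of each measured gene in 7 pathway lists, with members in purple, other genes in grey, the list median as a black bar and dashed lines at 1.5-fold. Mt1, Txnrd1 and Mafk lie beyond the lower line, and the list medians lie between -0.03 and 0.13.

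Among the regulators of the NRF2 pathway, Mafk was the member of the list past 1.5-fold. Nfe2l2 itself was at 5.79 and 5.68 times the array median (-0.03, turning positive under 4 of the 6 alternatives, up to 0.07), and Keap1 at 6.23 and 7.23 (0.21). Mafk, which encodes a small Maf partner of NRF2, was at 4.51 and 2.99 (-0.59), past 1.5-fold as reported and after background subtraction but not under the other 5 alternatives that could change a value. Its relative Mafg was at 34.2 and 28.8 (-0.25). Park7, which encodes the redox sensor DJ-1 and has the brightest probe of the list, stood at 68.1 and 71.3 (0.07). In this list of 11, 3 genes were higher and 8 lower, but between 3 and 7 were higher depending on the scaling, so the list has no settled direction. Over all 7 lists, 91 genes other than the members were measured, of which 47 were higher and 44 lower, 1 (Mafk) was at least 1.5-fold lower and none was 1.5-fold higher. Of these 91, 25 had a mean level under 1.5 times the array median, near the bottom of the intensity range. Over all probes with a symbol 45.3% were higher, 0.660% at least 1.5-fold lower and 0.877% at least 1.5-fold higher. The shares of bright probes were 34.7%, 1.42% and 1.71%. A count of 1 in 91 is near the shares at least 1.5-fold lower, so it does not set these genes apart.

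The antioxidant response element core was looked for in the same promoter windows. Windows of Txnrd1, Prdx1 and Gclm are shown because these genes were lower, higher and nearly level between the profiles while each window shown held 1 such core, here in capitals with any metal response element core. For Txnrd1 the table has 2 windows at different starts, of which the upstream one held no such core and the downstream one is shown.
Txnrd1 (chr7:22755905-22756154, minus strand): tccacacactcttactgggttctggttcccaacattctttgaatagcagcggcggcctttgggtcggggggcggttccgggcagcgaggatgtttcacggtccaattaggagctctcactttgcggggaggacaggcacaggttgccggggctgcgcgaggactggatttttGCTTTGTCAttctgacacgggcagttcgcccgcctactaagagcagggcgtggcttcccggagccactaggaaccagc
Prdx1 (chr5:135383656-135383905, plus strand): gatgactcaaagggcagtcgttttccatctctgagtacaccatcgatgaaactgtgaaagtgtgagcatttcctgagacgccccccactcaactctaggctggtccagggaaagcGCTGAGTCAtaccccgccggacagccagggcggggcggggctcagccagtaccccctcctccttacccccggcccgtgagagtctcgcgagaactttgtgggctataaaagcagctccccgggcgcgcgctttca
Gclm (chr2:213031885-213032134, plus strand): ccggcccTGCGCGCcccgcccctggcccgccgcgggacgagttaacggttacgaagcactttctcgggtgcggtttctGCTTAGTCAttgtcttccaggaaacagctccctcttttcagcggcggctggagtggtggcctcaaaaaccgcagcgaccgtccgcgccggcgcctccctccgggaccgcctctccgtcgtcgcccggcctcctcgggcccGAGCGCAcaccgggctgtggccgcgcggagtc

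The core lay 78 to 70 bases before the start in Txnrd1, 135 to 127 bases in Prdx1 and 172 to 164 bases in Gclm, on the opposite strand in each. Of the 9 members with a window, 5 held the antioxidant response element core (Mt1, Prdx1, Gclm, Sod2 and, in 1 of its 2 windows, Txnrd1), and 10.1% of all windows hold at least 1. The metal response element cores occurred in 3 members (Mt1, Mt3 and Gclm, the last with 2), and 20.6% of windows hold at least 1. The windows of Gclc, Sod1 and Nqo1 held neither. DNA outside the windows was not searched, so cores lying elsewhere in or near these genes would have been missed. Members with the antioxidant core in a window ranged from -1.40 to 0.55 in their differences. Any link between the core and a difference was not tested.

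Markers of several cell types and tissues also differed between the profiles. Their part in the results was not tested. To set beside the counts, 45.3% of all probes with a symbol were higher at 24 h and 54.7% lower. Of the bright probes, 34.7% were higher and 65.3% lower. Of 7 measured microglia and macrophage markers 6 were higher at 24 h, and their summed level went from 46.9 to 83.9 times the array median, with Itgam, Cx3cr1 and Ptprc dim. Such sums, here and below, are set mostly by the brightest probes of a list and do not measure the amount of a cell type. Astrocyte markers were higher in 3 of 6 (summed level 356 and 452). Gfap stood at 124 and 241 and Gjb6 at 47.7 and 30.1, and without Gfap the sum of the other 5 was 233 and 211. Oligodendrocyte markers were lower in 6 of 6 (332 and 235), neuron markers in 7 of 7 (526 and 475) and cortical excitatory neuron markers in 3 of 4 (23.1 and 18.6). The median differences of these lists were -0.434, -0.096 and -0.321, beside -0.080 over the bright probes, so the neuron list lay near that shift. Slc17a7 at 10.6 and 8.39 and Neurod6 at 8.80 and 7.15, genes of cortical excitatory neurons, were measured well above the array median, and so were most striatum markers, higher in 5 of 6 (76.5 and 105). Choroid plexus markers were higher in 5 of 6 (9.38 and 35.7), mostly through Ttr, with 4 of 6 dim. Endothelial markers were higher in 3 of 3 (34.1 and 35.2), but with a median difference of only 0.030 and with Flt1 dim. The probes of Tie1 gave 0.31 and 0.07. Erythroid markers, relevant to the heme list, were lower in 4 of 6 (138 and 103), with 3 of 6 dim, both higher ones among them. The brighter probes of Hbb, Hbb-b1 and Hba-a1 gave -0.40, -0.51 and -0.43. Neutrophil markers were lower in 4 of 6 (9.24 and 6.84). The fall in their sum came from S100a8 alone (5.05 and 2.46), and the other 5 were dim.

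**Figure D5:**
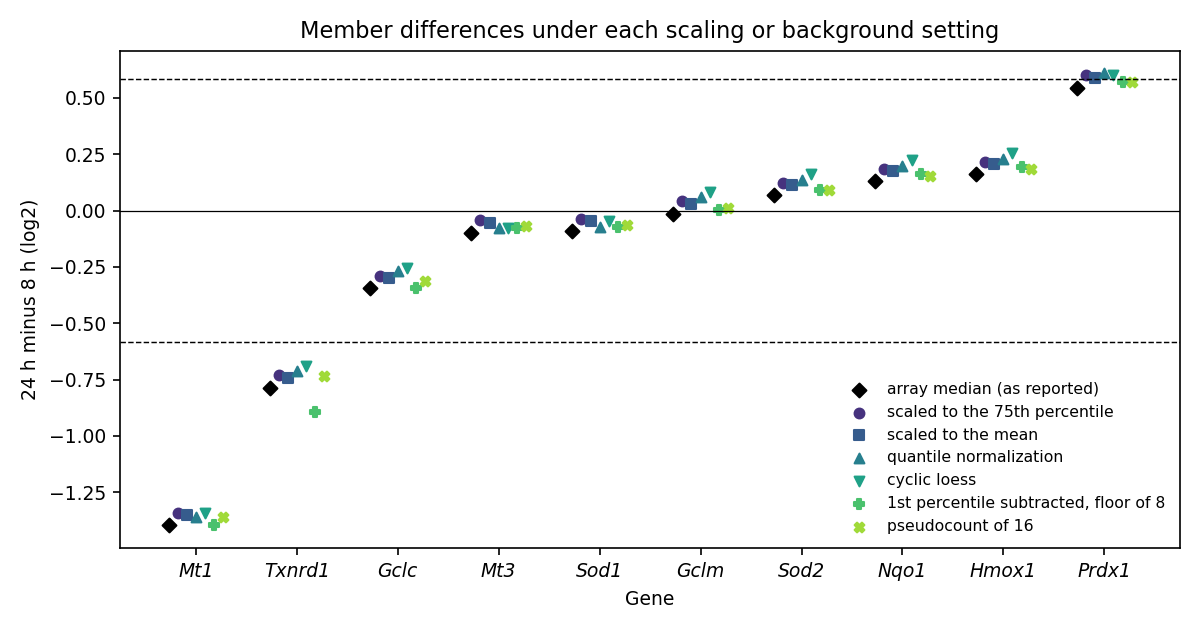
The 24 h minus 8 h difference (log2) of each member when columns are scaled to their median (black) and under 6 other scaling or background settings, with dashed lines at 1.5-fold. Mt1 and Txnrd1 stay beyond the lower line under all settings shown, Prdx1 crosses the upper line under 4 of them, and Gclm changes sign.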

How the data were processed

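The authors deposited linear intensities as 1 table of 22523 probes by 24 arrays, and these were used. Their background correction and normalization are not given in the sources used here. Another table of 24 non-normalized columns, named by running number alone, matched no sample by name and was not used. The platform annotation gave 13793 probes 1 symbol and 8730 none. Each column was divided by its median, and the median over the 12 columns of a time point gave its profile. The planned description has no test, since a time point is 1 profile. The members and gene lists were chosen with earlier results of these data known. Named genes were the members, list genes at least 1.5-fold different, and the brightest and most different gene of each list, and further list genes were named after their values were seen. A list counted each gene once, by its brightest probe. The comparisons with bright probes and between probes of 1 gene were added after seeing the data. Alternatives were scaling to the 75th percentile or mean, quantile normalization, cyclic loess (limma 3.58.1, R 4.3.3), the 1st percentile subtracted (floor of 8), a pseudocount of 16, filters on dim probes, and leaving out arrays. Calculations used Python 3.11.15 with pandas 2.3.3 and numpy 2.4.6, and the profile step was tested on simulated data.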

Additional observations from a re-analysis of the deposited data

Results flagged for a closer look

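In the treatment group at 24 h, replicate 2 stood apart from the other arrays. Its Mt1 intensity was 3266, against 2808 to 2869 in the other 3 arrays. The gap reflects the factor of that array and is therefore shared by all members, and it leaves the scaled levels as they were. Chance gives such a mark in about 1 in 20 groups, and 6 groups were examined.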

How the results depend on the processing

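The count of members at least 1.5-fold lower was 2 under every alternative, and the count higher was 4 or 5. The count at least 1.5-fold higher was 0, and 1 (Prdx1) after scaling to the 75th percentile or the mean, quantile normalization or cyclic loess. The median over members was 0.0018 after scaling to the 75th percentile, -0.0087 to the mean, -0.0048 after quantile normalization, 0.018 after cyclic loess, -0.036 after subtraction of the 1st percentile and -0.026 with the pseudocount, so its sign is not settled. The sign of 9 members was the same under all 12 alternatives for a single probe, with Gclm the exception. Leaving out replicates or using 1 slide moved nothing, by construction, because all columns of a time point are 1 profile (median -0.053 each time), and this is no evidence of stability. All members passed the filters on dim probes, and each has 1 probe. Over all probes with a symbol, 121 were at least 1.5-fold higher and 91 lower (57.1% of these higher), 159 and 75 (67.9%) after scaling to the 75th percentile, 167 and 67 (71.4%) after cyclic loess, and 620 and 483 after subtraction. No paired analysis was possible because the results come from no test. Without detection values, how far each probe lies above background is unknown.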
